A study of Mus musculus with 12 samples.

Results

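Genes of glycolysis and of the hypoxia response were followed in pre-iPSCs, reprogramming intermediates that resemble ESCs in shape but have not reached the iPSC state. The genes were picked out by symbol from a list made with earlier results of these data known. All 37 were found among the 20325 genes of the files. They comprised 15 glycolytic enzymes, 3 regulators of glycolytic flux, 2 transporters, the 2 oxygen-regulated HIF factors, 4 genes for the degradation of these factors and 11 other HIF targets. For 48 h, mouse pre-iPSCs in ESC medium received either DMSO as the control, AA (ascorbic acid, vitamin C) at 50 μg per ml, 2i (a MEK inhibitor, PD0325901, at 1 μM together with a GSK inhibitor, CHIR99021, at 3 μM) or the combination AA+2i. Each of these 4 conditions had biological replicates A, B and C, so that 12 RNA-seq libraries of 3 replicates a condition were compared. According to the study, the pre-iPSC lines were clonal. Lines from mouse embryonic fibroblasts with a Nanog-GFP reporter were made by retroviruses carrying Oct4, Sox2, c-Myc and Klf4, and lines from astrocytes lacked the reporter. The methods also state that fibroblasts and astrocytes for such lines carried these factors in a single cassette. Those cells were heterozygous for rtTA, the activator that acts with doxycycline. Per the labels, the cells were kept on irradiated feeder cells and were treated without them. The sources used here do not say which of the lines was sequenced, and every condition shared this background.

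Glycolysis converts glucose to pyruvate in the cytoplasm, and lactate dehydrogenase regenerates the NAD that the pathway needs when pyruvate is not oxidised in mitochondria. In the presence of oxygen, the prolyl hydroxylases of the Egln family mark the HIF alpha subunits, which the Vhl ubiquitin ligase then sends to the proteasome. When oxygen falls, the subunits persist, pair with Arnt and bind the letters ACGTG or GCGTG near many genes of glucose uptake, glycolysis, mitophagy and blood vessel growth. AA is a cofactor of these hydroxylases in biochemical assays, and pluripotent cells are known for high glycolysis. The transcripts of HIF targets are a readout of this pathway, but the HIF proteins themselves are controlled mainly by degradation and were not measured here.

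The promoters of 5 of the genes are shown because their transcripts are described below and their letters can be compared: 3 genes whose libraries with 2i all lay below those with DMSO (Egln3, Mxi1 and Ankrd37) and 2 genes for which the groups overlapped (Ldha and Bnip3). Each window runs from 250 bases before to 50 after a RefSeq transcription start, 5′ to 3′ on the strand of the gene, and was found once in mm9. Capitals mark ACGTG and GCGTG, the 2 forms of the HIF core letters, on either strand (CACGT and CACGC on the strand shown). Because CACGTG holds ACGTG on both strands, it counts as 2 matches, and CACGCGTG likewise holds GCGTG on both strands.
Egln3, chr12:55304812-55305111, minus strand: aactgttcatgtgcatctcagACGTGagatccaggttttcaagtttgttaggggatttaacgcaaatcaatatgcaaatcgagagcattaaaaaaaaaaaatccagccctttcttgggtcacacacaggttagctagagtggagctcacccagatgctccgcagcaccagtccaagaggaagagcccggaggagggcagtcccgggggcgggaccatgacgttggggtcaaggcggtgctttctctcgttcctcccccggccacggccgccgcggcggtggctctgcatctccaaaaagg
Mxi1 (the window of 1 of 3 listed starts), chr19:53403653-53403952, plus strand: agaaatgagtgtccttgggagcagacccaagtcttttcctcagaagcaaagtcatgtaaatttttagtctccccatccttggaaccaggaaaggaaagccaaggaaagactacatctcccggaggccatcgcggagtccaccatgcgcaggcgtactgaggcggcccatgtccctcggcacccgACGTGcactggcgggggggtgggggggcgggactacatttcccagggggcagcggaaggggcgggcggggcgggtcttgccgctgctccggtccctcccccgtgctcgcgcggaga
Ankrd37, chr8:47085155-47085454, minus strand: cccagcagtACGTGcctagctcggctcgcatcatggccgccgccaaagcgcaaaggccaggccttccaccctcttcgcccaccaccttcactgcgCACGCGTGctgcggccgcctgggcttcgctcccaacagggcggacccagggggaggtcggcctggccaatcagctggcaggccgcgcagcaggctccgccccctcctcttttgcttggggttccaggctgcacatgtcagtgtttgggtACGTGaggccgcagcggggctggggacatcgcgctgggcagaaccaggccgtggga
Ldha (the window of 1 of 2 listed starts), chr7:54100924-54101223, plus strand: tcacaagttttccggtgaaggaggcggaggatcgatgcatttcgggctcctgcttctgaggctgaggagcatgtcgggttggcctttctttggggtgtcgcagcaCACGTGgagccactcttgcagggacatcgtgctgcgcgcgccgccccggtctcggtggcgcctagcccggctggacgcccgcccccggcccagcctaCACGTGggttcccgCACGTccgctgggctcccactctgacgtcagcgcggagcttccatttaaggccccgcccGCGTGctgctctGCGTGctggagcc
Bnip3, chr7:146101140-146101439, minus strand: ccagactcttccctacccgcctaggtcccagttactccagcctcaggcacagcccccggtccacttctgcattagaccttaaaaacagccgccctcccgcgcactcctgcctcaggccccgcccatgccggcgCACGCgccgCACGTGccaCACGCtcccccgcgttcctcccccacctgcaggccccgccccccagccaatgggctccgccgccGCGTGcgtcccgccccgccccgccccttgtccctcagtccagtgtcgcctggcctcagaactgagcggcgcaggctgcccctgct
Egln3 and Mxi1 had 1 match to ACGTG each and 0 to GCGTG, Ankrd37 had 2 and 2, Ldha 5 and 2, and Bnip3 2 and 3. For Mxi1 and Ldha, which have several listed starts, the first window that held ACGTG was printed. Their having a match to ACGTG was thus fixed by that choice, and the first listed window of Mxi1 held 0 of either form. Windows were listed for 34 of the 37 genes (50 windows), and not for Epas1, Bnip3l and Ndrg1. ACGTG lay in 54.0% of these windows, against 19.6% of all 32851 windows of the same length, and in at least 1 window of 23 of the 34 genes (67.6%), against 21.8% of 27025 genes. GCGTG lay in 54.0% of the windows, against 32.4% of all windows. The windows of the 34 genes were also richer in GC, with a median of 62.2% against 52.7%, and its part in these shares was not tested. The letters were counted without the RNA measurements, but the list was made with earlier results of these data known. It was also chosen to hold HIF targets, and several of these genes are known for their HIF sites. The shares are therefore not a test against the background. The shares of genes also set 50 windows in 34 genes against 32851 windows in 27025 genes. Of the 5 promoters shown, the most matches were in Ldha and Bnip3, whose groups overlapped with 2i, and as the 5 were picked by their transcripts nothing can be read from this order.

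Library totals ranged from 16173322 to 54392719 expected counts, with DMSO B and AA B the deepest. Libraries differed in how transcripts of high GC content were covered. For transcripts of 57% GC, the deviation from the mean of all libraries, smoothed and on the log2 scale, was -1.19 in DMSO A, -0.97 in AA A and -0.35 in 2i A, and lay between -0.04 and 0.73 in the other 9. The transcripts of the glycolytic enzymes had a median GC content of 54.7%, against 50.3% for the genes tested. DMSO B stood apart in a different way, with 9673 TPM of Pou5f1 (Oct4, one of the introduced factors), against 1865 to 4447 TPM in the other 11 libraries. Of the pre-iPSC markers, Cdh1, Epcam and Pou5f1 were present in every library and Fut4 was at 0.12 TPM or below. Of the 9 pre-iPSC markers tested, Cdh1, Nanog and Zfp42 were called with AA, 0 under 2i and 5 under AA+2i, all higher. Of 12 fibroblast markers, 11 were in the files, Lum was at 0 in all 12 libraries, and the summed level of the 11 was 14.6 to 27.6 TPM with DMSO, 15.5 to 23.5 with AA, 12.3 to 16 under 2i and 10.6 to 17.4 under AA+2i. Of the 9 fibroblast markers tested, 1 was called against DMSO, Col3a1, which was higher with AA+2i and at 0.64 TPM or below throughout. Values below are TPM, which are scaled for transcript length and library, in the order A, B and C. Fold changes are on the log2 scale from edgeR on the counts, ± SE, with p-values adjusted over the 13400 genes tested, and a change was called at an adjusted p under 0.05. All 37 genes passed the filter on low counts.

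The HIF factor Epas1 and the HIF-induced hydroxylase Egln3 were the genes of the degradation axis that fell with 2i. With 2i, 3 of the 37 genes were called against DMSO, all of them lower (Epas1, Egln3 and Ndrg1), which is 8.11% of the list against 4.42% of the genes tested in either direction and 2.83% in this direction. Epas1 (chr17:87153247-87232750, plus strand, mm9) encodes an alpha subunit with a narrower range of tissues than Hif1a. Epas1 stood at 48.5, 67.6 and 70.5 TPM with DMSO and at 68.2, 79.7 and 114 TPM with AA. With 2i it stood at 12.8, 10.7 and 17.7 TPM, and with AA+2i at 25.6, 17.9 and 24.5 TPM. Every library with 2i, with or without AA, lay below every library without it, and the 3 libraries with AA+2i lay above the 3 with 2i alone. Epas1 fell by 1.98 ± 0.31 with 2i against DMSO (edgeR adjusted p = 0.00511), by 1.24 ± 0.30 with AA+2i against DMSO (0.0298) and by 1.77 ± 0.31 with AA+2i against AA (0.00661). The first and the third of these calls held when any 1 library was left out, and the second was lost without DMSO B, DMSO C or any library of AA+2i (0.0598 to 0.108). In bulk RNA, fewer cells with a transcript and less of it per cell cannot be told apart.

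Egln3 (chr12:55279968-55304847, minus strand, mm9) encodes the prolyl hydroxylase that is itself a strong HIF target, and its promoter is printed above. It stood at 148, 94.2 and 150.5 TPM with DMSO and at 186, 149 and 142 TPM with AA. The levels were 56.4, 57.2 and 23.8 TPM with 2i and 63.7, 67.3 and 39.8 TPM with AA+2i. The groups with and without 2i did not overlap, and the C libraries were the lowest with 2i and with AA+2i. Egln3 fell by 1.37 ± 0.33 with 2i against DMSO (edgeR adjusted p = 0.0402) and by 1.32 ± 0.33 with AA+2i against AA (0.0381), and its change with AA+2i against DMSO was -1.04 ± 0.33 (0.0779). These calls were near the threshold: leaving out any 1 library other than DMSO B or AA A ended the first (0.0505 to 0.113), and leaving out any library of AA or AA+2i, 2i A or 2i B ended the other (0.0508 to 0.163).

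**Figure D1:**
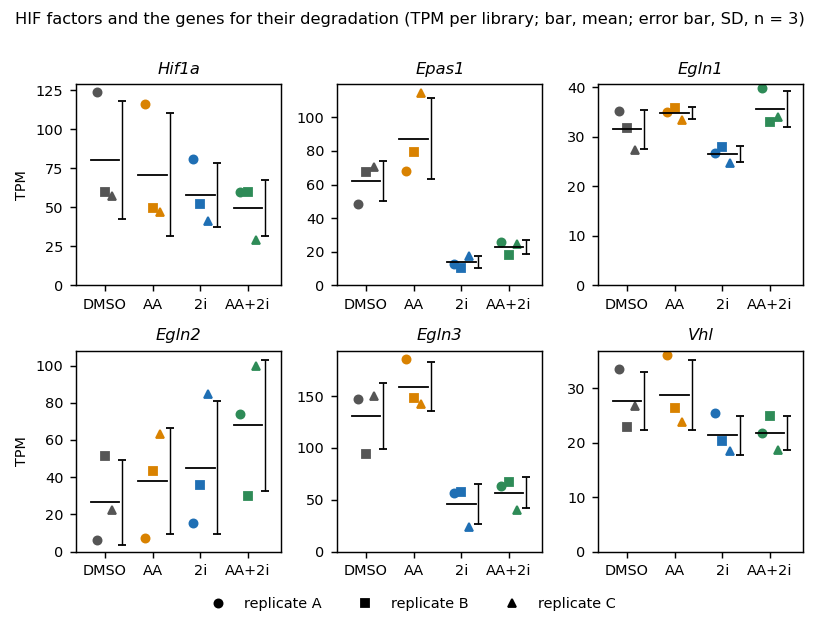
TPM (vertical axis, from 0) of the HIF factors and of the genes for their degradation in each library, by condition, with replicates A, B and C as circles, squares and triangles, the mean as a bar and the SD as an error bar (n = 3). The 6 libraries with 2i or AA+2i lie between 10.7 and 25.6 TPM for Epas1 and between 23.8 and 67.3 TPM for Egln3, below all 6 libraries without 2i.

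No other gene of the axis was called in any of the 6 comparisons. Hif1a, the alpha subunit found in most cells, stood at 124, 60.0 and 57.3 TPM with DMSO, 116, 49.6 and 46.9 with AA, 80.7, 52.2 and 41.1 under 2i and 59.8, 60.1 and 29.3 under AA+2i. Its A library was the highest of the 3 with DMSO, with AA and with 2i, and all conditions overlapped. Its change with AA+2i against DMSO was -0.54 ± 0.43 (edgeR adjusted p = 0.398) and turned to 0.02 with the correction for GC content. Because Epas1 was lower with 2i, Hif1a made up 69.9 to 86.3% of the summed TPM of both alpha subunits with 2i, against 44.8 to 71.9% with DMSO and 29.1 to 63.1% with AA. The transcripts have a GC content of 41.3% for Hif1a and 52.6% for Epas1, and the shares were not corrected for it.

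Egln1, the hydroxylase that sets HIF levels in most cells at normal oxygen, was even across libraries at 24.8 to 39.9 TPM. It was lower in each library with 2i (26.7, 28.0 and 24.8 TPM) than in each with AA+2i (39.9, 33.0 and 34.0 TPM), a difference of 0.45 ± 0.17 that was not called (edgeR adjusted p = 0.355). Egln2, the third hydroxylase, varied the most of the axis, from 6.01 TPM in DMSO A to 99.8 in AA+2i C. Its transcript is the richest in GC of the 37 (62.2%), and its lowest libraries were DMSO A, AA A (7.12 TPM) and 2i A (15.2 TPM), those with the least coverage of high GC. Its change with AA+2i against DMSO was 1.67 ± 0.92 (0.268) and 0.66 with the correction for GC content. Vhl, the ubiquitin ligase subunit, stood at 18.5 to 36.1 TPM in all libraries, with a change with 2i of -0.21 ± 0.23 (0.661). Over the prolyl hydroxylases together, Egln3 made up 53.1 to 78.1% of the summed TPM with DMSO and 17.9 to 57.4% with 2i, and Egln1 13.7 to 18.7% and 18.7 to 27.1%. The sum includes Egln2, and the shares were not corrected for GC content.

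Among the 11 other HIF targets, the changes with 2i were below 0 for 9, with a median of -0.86, against -0.02 over all genes tested. With AA they were below 0 for 4, with a median of 0.02, and with AA+2i for 7, with a median of -0.38. Ndrg1 was called with 2i and Mxi1 with AA+2i against DMSO, and both were called with AA+2i against AA. The median with 2i lay between -0.88 and -0.47 over the alternatives named here: TMM factors, the GC correction (-0.68), and leaving out DMSO A (-0.67), DMSO B (-0.47) or the replicate letters A (-0.73), B (-0.59) and C (-0.61).

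Ndrg1 (chr15:66760883-66801202, minus strand, mm9), a stress-induced gene that is repressed by Myc proteins, stood at 210, 185 and 251 TPM with DMSO and 331, 346 and 310 TPM with AA. It stood at 116, 113 and 71.4 TPM with 2i and 176, 188 and 123 TPM with AA+2i. Its levels were therefore ordered with AA highest and 2i lowest, the libraries with AA+2i lay between those with 2i and those with AA, and only AA+2i and DMSO overlapped. Ndrg1 fell by 0.95 ± 0.22 with 2i against DMSO (edgeR adjusted p = 0.0384) and by 0.85 ± 0.22 with AA+2i against AA (0.0464). Its changes with AA against DMSO (0.62 ± 0.22, 0.317) and with AA+2i against 2i (0.71 ± 0.22, 0.21) were not called. The first call was lost in 9 of 12 fits that each left out 1 library (0.0573 to 0.162), and held without DMSO B, AA A or AA+2i C. The second was lost in 9 of 12 (0.0519 to 0.195), and held without DMSO B, DMSO C or 2i C.

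Mxi1 (chr19:53384996-53450300, plus strand, mm9), which encodes a partner of Max that opposes Myc at its target genes, stood at 38.5, 31.4 and 23.5 TPM with DMSO and 37.2, 31.6 and 23.5 TPM with AA. The levels with AA and with DMSO covered the same range. It stood at 17.3, 15.5 and 11.5 TPM with 2i and at 15.2, 15.4 and 9.82 TPM with AA+2i, all below every library without 2i. Mxi1 fell by 1.00 ± 0.23 with AA+2i against DMSO (edgeR adjusted p = 0.0217) and also by 1.00 ± 0.23 with AA+2i against AA (0.0256), and its change with 2i was -0.89 ± 0.23 (0.0522). The call against DMSO was lost without DMSO A or any library of AA+2i (0.0565 to 0.101), and that against AA without AA A, AA B or any library of AA+2i (0.0693 to 0.114). With a term for the replicate letters, the change of Mxi1 with 2i was -0.87 ± 0.14 and was called (edgeR adjusted p = 0.00344).

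The remaining targets were not called in the main edgeR fit. With a term for the replicate letters, edgeR called Ankrd37, Bnip3l and Adm lower with 2i (adjusted p = 0.0101, 0.0191 and 0.0378). It also called Ddit4 higher with 2i (0.0475), where 13.3% of all genes were called. With AA+2i against DMSO this fit called Ankrd37, Bnip3l, Adm and Vegfa lower and Ddit4 higher, where 31.6% of all genes were called. Ankrd37, an ankyrin repeat gene induced by HIF, stood at 38.3, 59.2 and 58.0 TPM with DMSO, 38.8, 57.1 and 40.2 with AA, 17.8, 29.0 and 17.7 under 2i and 25.8, 26.4 and 25.2 under AA+2i. Its groups with and without 2i did not overlap, and its change with 2i of -1.07 ± 0.27 just missed the threshold (edgeR adjusted p = 0.0518). It was called with DESeq2, with limma on TPM and with the GC correction (0.00441, 0.019 and 0.00779). Bnip3l, a receptor for the removal of mitochondria, stood at 293, 149 and 156 TPM with DMSO and 115, 84.0 and 64.9 TPM with 2i, and its paralog Bnip3 at 372, 178 and 197 and at 255, 219 and 107. The A library was the highest for both with DMSO and with 2i, their transcripts are poor in GC (41.9% for Bnip3l and 41.6% for Bnip3), and Bnip3l with 2i was at -1.03 ± 0.36 (0.158) and -0.66 ± 0.12 with the GC correction (0.00509). Within the pair, Bnip3l took 43.2 to 48.1% of the summed TPM in the 6 libraries without 2i and 27.7 to 37.7% in the 6 with it.

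Adm, which encodes a vasodilator peptide, was low at 3.7, 6.57 and 6.81 TPM with DMSO, 3.86, 5.01 and 6.71 with AA, 1.99, 2.06 and 2.92 under 2i and 3.22, 1.72 and 2.36 under AA+2i. Its groups with and without 2i did not overlap either, and the change with 2i was -1.08 ± 0.37 (edgeR adjusted p = 0.148). Ddit4, an inhibitor of mTORC1 signalling, went the other way, from 122, 107 and 138 TPM with DMSO and 84.3, 136 and 147 with AA to 175, 177 and 188 under 2i and 179, 153 and 210 under AA+2i. All 6 libraries with 2i were above the 6 without it, but the change with AA+2i of 0.78 ± 0.28 was not called (0.116) and turned to -0.20 with the correction for GC content (57.6% for Ddit4). Vegfa, the vascular growth factor, stood at 14.7, 54.8 and 17.0 TPM with DMSO and 12.3, 17.8 and 10.04 with 2i, and its change with 2i was -0.86 with all libraries and -0.14 without DMSO B. Higd1a, a mitochondrial protein of the hypoxia response, stayed between 8.52 and 11.9 TPM, and the carbonic anhydrases Car9 and Car12, which regulate pH, between 0.40 and 2.66 TPM, at 8 to 221 counts.

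**Figure D2:**
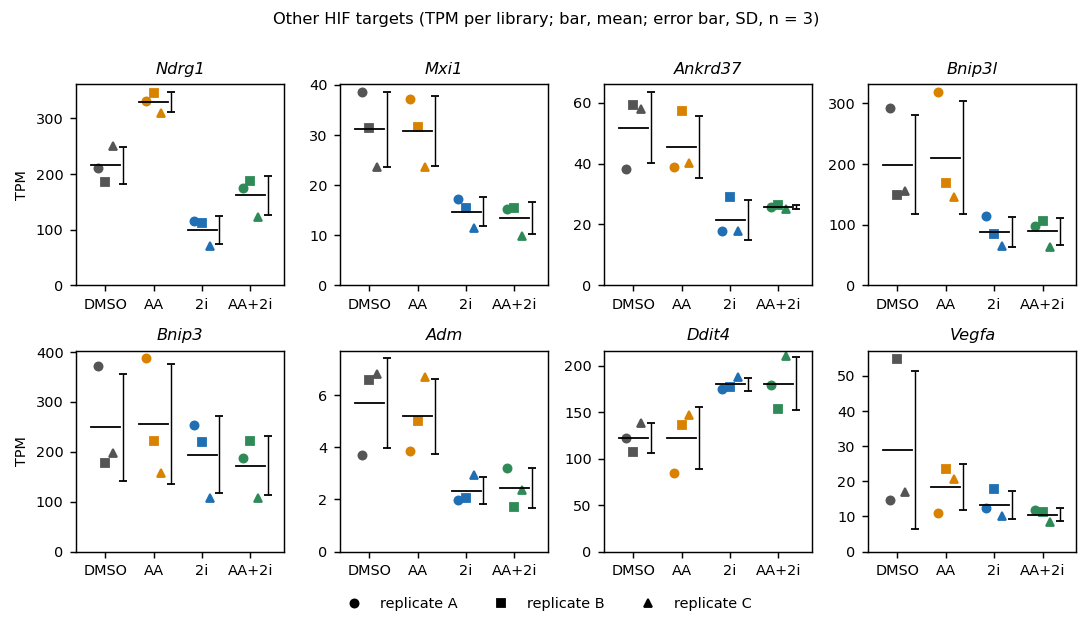
TPM (vertical axis, from 0) of 8 other HIF targets in each library, by condition, with replicates A, B and C as circles, squares and triangles, the mean as a bar and the SD as an error bar (n = 3). Ndrg1 lies at 310 to 346 TPM with AA and at 71.4 to 116 TPM with 2i. Mxi1, Ankrd37, Bnip3l and Adm lie lower in all libraries with 2i or AA+2i than in all without 2i, Ddit4 lies higher, and the groups of Bnip3 overlap.

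With edgeR on the counts as deposited and no term for the replicate letters, no glycolytic enzyme was called in any of the 6 comparisons. With such a term, Eno2 was called lower with AA against DMSO (against 4.43% of all genes), and Gapdh and Pfkp higher with 2i (13.3%). For AA+2i against DMSO that fit called Hk1, Gpi1, Pfkp, Aldoa, Aldoc and Gapdh higher and Eno2 lower (against 31.6% of all genes). DESeq2 called Pfkp with 2i and Eno2 with AA+2i against DMSO, and the GC correction called these 2, Gapdh and Pfkm in at least 1 comparison. The enzymes were among the most abundant transcripts of these cells: with DMSO, Gapdh, the dehydrogenase of the oxidative step, was at 3812 ± 2260 TPM (SD, n = 3), Ldha, which makes lactate, at 1809 ± 418, Pgk1, the first step that yields ATP, at 1695 ± 456, Eno1 at 949 ± 414, Tpi1 at 807 ± 252, Aldoa at 653 ± 344 and Pgam1 at 593 ± 68.1. The entry steps were lower, with Hk2 at 74.3 ± 7.67 TPM, Hk1 at 36.7 ± 10.7, Pfkp at 77.8 ± 16.6, Pfkl at 56.7 ± 38.4 and Pfkm at 53.7 ± 19.2. The SDs were large where DMSO A was low, and the summed TPM of the 15 enzymes was 7222 in DMSO A and 8996 in AA A, against 11805 to 18682 in the other 10 libraries. The counts split shared reads by estimate. Among the enzymes they were whole (within 0.05) in at most 1 library for Gapdh, Pgk1, Eno1, Gpi1, Pfkp and Pgam1. The same held for Bnip3l and Higd1a, and the cause was not tested.

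With 2i, the enzymes' changes were above 0 for 12 of 15, with a median of 0.29. An unadjusted p under 0.05 was reached by 3 of the 15 (Gapdh, Pfkp and Eno1) and by 2151 of the 13400 genes tested. The changes were above 0 for 12 under AA (median 0.22) and for 11 under AA+2i (median 0.49), against medians of -0.01 and -0.02 over all genes tested. The correction for GC content moved these medians to 0.06 for AA, 0.22 for 2i and 0.05 for AA+2i. Leaving out DMSO A gave medians of 0.10, 0.31 and 0.35. The part of the uneven GC coverage in the uncorrected values was not tested.

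Gapdh stood at 1396, 4157 and 5884 TPM with DMSO, 2740, 8521 and 7554 with AA, 6585, 8363 and 8000 under 2i and 7644, 7137 and 7365 under AA+2i. All libraries with 2i or AA+2i were above all with DMSO, the lowest by far was DMSO A, and the spread with AA+2i was small. The change with 2i was 1.2 ± 0.51 (edgeR adjusted p = 0.271), 0.93 ± 0.28 with the GC correction, where it was called (0.0488), and 0.81 without DMSO A. Eno1, which dehydrates phosphoglycerate, stood at 471, 1169 and 1206 TPM with DMSO and 1613, 2237 and 1666 with 2i, with AA+2i at 1844, 1089 and 1046. Aldoa, which splits fructose bisphosphate, stood at 257, 878 and 823 TPM with DMSO and 912, 1186 and 1007 with 2i. For both, every library with 2i was above every library with DMSO, and neither was called.

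Pfkp, a phosphofructokinase of the committing step, had the smallest unadjusted p of the enzymes under 2i. It stood at 58.9, 84.5 and 90.1 TPM with DMSO, 82.4, 101 and 79.1 with AA, 109, 112 and 102 under 2i and 99.5, 107 and 78.8 under AA+2i. The 3 libraries with 2i lay above all with DMSO, and the change of 0.66 ± 0.19 was not called (edgeR adjusted p = 0.0826) but was with DESeq2 (0.0148), with the GC correction (0.0331) and without DMSO C (0.0408). The makeup of the phosphofructokinases differed too: Pfkm, the muscle form, took 25.1 to 31.7% of their summed TPM in the 6 libraries without 2i and 17.6 to 21.3% in the 6 with it.

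Eno2, the neuronal enolase, lay lower with AA+2i than with DMSO. It stood at 27.0, 115 and 53.7 TPM with DMSO, 14.9, 30.9 and 28.2 with AA, 27.0, 35.5 and 36.6 under 2i and 18.3, 19.0 and 20.2 under AA+2i. The 3 libraries with AA+2i were close together and below all with DMSO and all with 2i, and the value of DMSO B was the highest. The change with AA+2i of -1.49 ± 0.43 was not called (edgeR adjusted p = 0.058), was called with the GC correction (-1.82 ± 0.22, 0.000214) and without DMSO A (-1.84, 0.0154), and was -0.95 without DMSO B (0.165). Eno2 took 4.26 to 8.93% of the summed TPM of both enolases with DMSO and 0.981 to 1.89% with AA+2i.

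**Figure D3:**
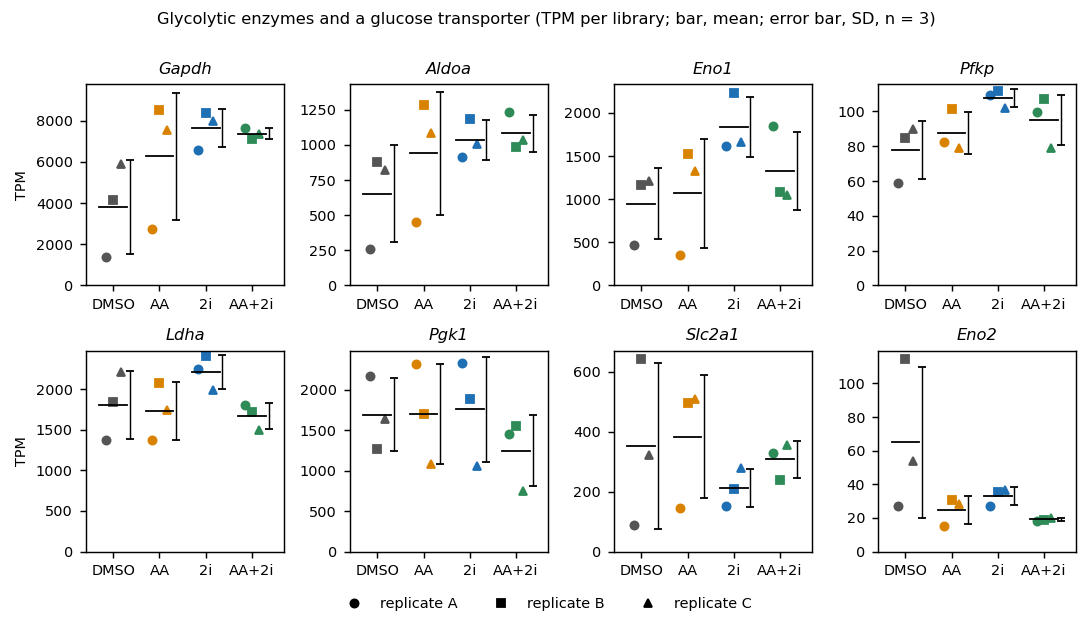
TPM (vertical axis, from 0) of 7 glycolytic enzymes and the glucose transporter Slc2a1 in each library, by condition, with replicates A, B and C as circles, squares and triangles, the mean as a bar and the SD as an error bar (n = 3). DMSO A and AA A are the lowest libraries of their groups for Gapdh, Aldoa, Eno1 and Slc2a1. Eno2 lies at 18.3 to 20.2 TPM with AA+2i, below every library with DMSO.

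The remaining enzymes overlapped between DMSO and each treatment. Aldoc, the brain aldolase, stood at 29.9, 52.5 and 30.7 TPM with DMSO and at 69.7, 64.3 and 49.0 with AA+2i, a change of 0.92 ± 0.33 that was not called (edgeR adjusted p = 0.114). Hk1, a hexokinase bound to mitochondria, stood at 26.9, 48.1 and 35.0 TPM with DMSO and 55.1, 39.8 and 46.9 with AA+2i. Hk2, the HIF-induced hexokinase, took 63.2 to 73.0% of the summed TPM of the pair with DMSO and 43.2 to 56.6% with AA+2i. These shares were not corrected for GC content, nor were those of the other gene families above. The change of Hk1 with AA+2i was 0.60 ± 0.22, and -0.04 ± 0.25 with the GC correction. That of Hk2 was -0.32 ± 0.21, and -0.44 ± 0.21 with the correction, and neither gene was called in either fit. Ldha lay at 1984 to 2401 TPM with 2i and at 1496 to 1805 with AA+2i, which did not overlap, and both ranges overlapped that with DMSO (1377 to 2213). Pgk1 and Pgam1 showed no common direction, at 745 to 2327 and 526 to 679 TPM over the 12 libraries.

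Regulators of flux and transporters were not called in the main edgeR fit. Pfkfb3, which makes the activator of phosphofructokinase, stood at 17.9, 17.4 and 15.9 TPM with DMSO and 28.7, 31.4 and 14.5 with AA+2i, where the C library stood apart from A and B. Its change of 0.76 ± 0.25 (edgeR adjusted p = 0.0977) was called with DESeq2 (0.0462) and with the GC correction (0.018). With a term for the replicate letters, edgeR called Pfkfb3 higher with 2i (0.0497) and with AA+2i (0.0154) against DMSO. That fit called 13.3 and 31.6% of all genes in these comparisons. Pfkfb4, its paralog, was at 2.14 to 6.63 TPM. Pdk1, the kinase that turns pyruvate away from mitochondria, stood at 60.4, 52.1 and 37.8 TPM with DMSO and 37.5, 37.4 and 18.7 with AA+2i. Its change with AA+2i was -0.51 ± 0.31 (edgeR adjusted p = 0.301). With the term for the replicate letters it was -0.52 ± 0.14 and was called (0.0216). Slc2a1, the main glucose transporter, ranged from 89.9 TPM in DMSO A to 643 in DMSO B within 1 condition, and Slc16a3, which exports lactate, from 4.78 to 43.6 TPM, also with DMSO A lowest and DMSO B highest.

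**Figure D4:**
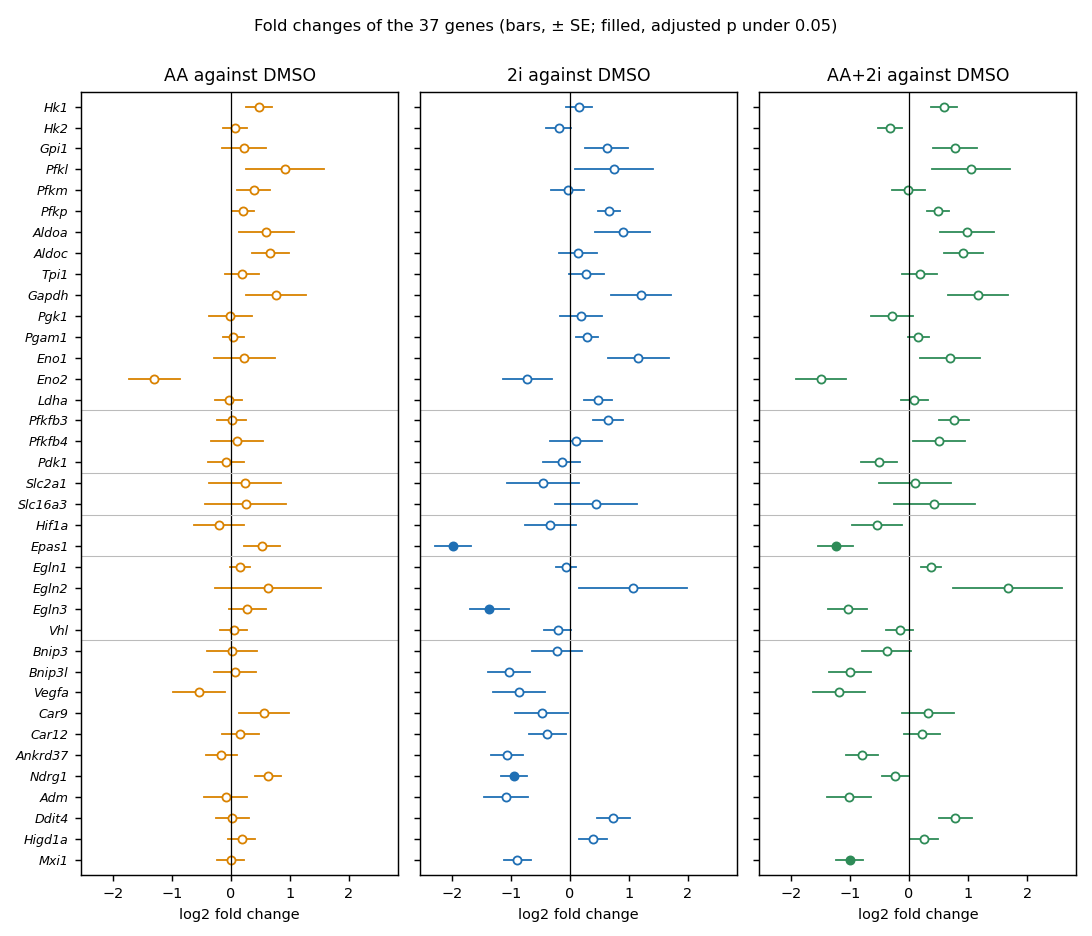
Log2 fold changes (horizontal axis) of the 37 genes against DMSO from edgeR under AA, 2i and AA+2i, with bars of ± SE, in blocks from top to bottom of glycolytic enzymes, regulators of flux, transporters, HIF factors, genes of HIF degradation and other HIF targets. Filled points passed an adjusted p under 0.05: none with AA, Epas1, Egln3 and Ndrg1 with 2i, and Epas1 and Mxi1 with AA+2i.

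Over the comparisons, edgeR called 0 of the 37 genes with AA against DMSO, against 1.34% of the genes tested. An unadjusted p under 0.05 was reached by 2 of the 37 (Eno2 and Ndrg1) and by 1263 of the 13400 genes tested. With AA+2i against DMSO 2 were called, both lower (5.41%), against 8.34% of the genes tested and 4.41% in this direction, and with AA+2i against AA 4 were called (10.8%), all lower, against 6.1% of the genes tested and 3.29% in this direction. The share with AA+2i against DMSO was near the background, and the genes called with 2i and with AA+2i share the DMSO libraries. With AA+2i against 2i edgeR called 0, against 0.91%. Here 4 of the 37 genes had an unadjusted p under 0.05, all higher (Ndrg1, Egln1, Epas1 and Aldoc). In either direction 1277 of the 13400 genes tested did so, a similar share. DESeq2 called 0 of the 37 with AA against DMSO and with AA+2i against 2i. The interaction of AA and 2i is the change with AA+2i less those with either agent alone. It was called by edgeR for 0 of the 37 genes, against 0.0149% of the genes tested. DESeq2 also called 0. With edgeR, 0 of the 37 had an unadjusted p under 0.05, against 309 of the 13400 genes tested. For Epas1 the interaction was 0.22 ± 0.42 and for Ndrg1 0.09 ± 0.31, so a difference between their changes with 2i in cells with and without AA was not shown.

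The values of the libraries were also compared directly. With 2i, 7 of the 37 genes (18.9%) lay lower in all 3 libraries than in all with DMSO (Adm, Ankrd37, Bnip3l, Egln3, Epas1, Mxi1 and Ndrg1), against 14.7% of the genes tested, and 6 (16.2%) lay higher (Aldoa, Ddit4, Eno1, Gapdh, Higd1a and Pfkp), against 5.19%. With AA+2i, 9 lay lower (24.3% against 22.5%) and 3 higher (8.11% against 9.6%). With AA, 0 lay lower (against 4.13%) and Higd1a and Ndrg1 lay higher (5.41% against 5.36%). With AA+2i against AA the same 7 genes as with 2i against DMSO lay lower (18.9% against 16.8%). Thus the shares of lower genes were near the background or below it, and the share of higher genes with 2i was above it. Of these 6 higher genes 4 were enzymes, whose highest library with DMSO was B for Aldoa and C for Eno1, Gapdh and Pfkp. The part of the uneven GC coverage in this share was not tested.

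**Figure D5:**
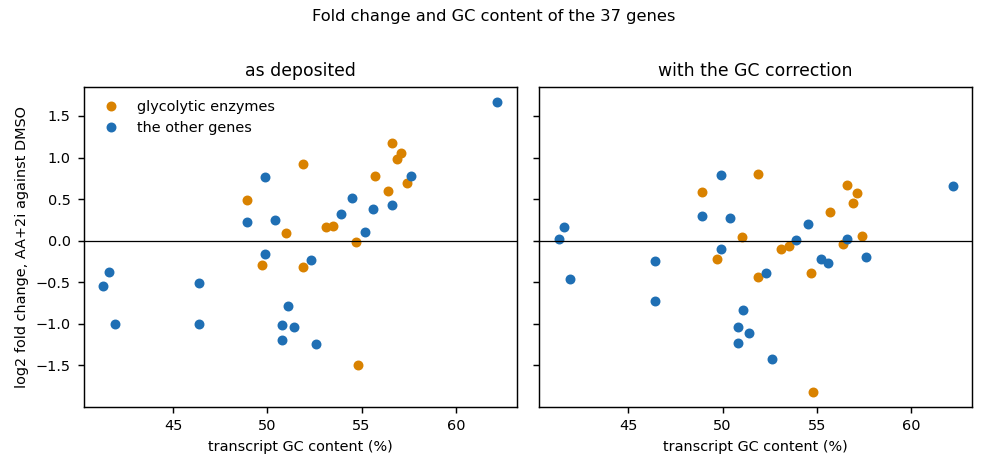
Log2 fold change with AA+2i against DMSO (vertical axis) of the 37 genes over the GC content of their transcripts in percent (horizontal axis), from the counts as deposited (left) and with the GC correction (right). The glycolytic enzymes are orange and the other genes blue, and the correlation across the genes is 0.59 on the left and 0.16 on the right.

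The fold changes of the genes went with their GC content. Across the 37 genes Pearson's r was 0.36 for AA, 0.46 for 2i and 0.59 for AA+2i, against 0.27, 0.32 and 0.42 across the 13301 genes tested with a known GC content, and genes of the same libraries are not independent. With the correction it was -0.05, 0.17 and 0.16. The corrected fit called more of the 37 genes against DMSO: 1 lower with AA (Eno2, against 4.07% of the genes tested), 7 lower and 2 higher with 2i (24.3%, against 11.9%), and 6 lower and 2 higher with AA+2i (21.6%, against 19.6%). The genes lower with 2i in the corrected fit were Epas1 (-2.11 ± 0.22), Egln3, Ankrd37, Ndrg1, Eno2 (-0.92 ± 0.22), Mxi1 (-0.73 ± 0.13) and Bnip3l, and those higher were Gapdh and Pfkp (0.70 ± 0.19).

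Other genes of both pathways, taken from lists of 36 and 40, were read alongside. Of 24 tested genes of glucose metabolism, 0 were called with AA or with 2i and 2 with AA+2i, both higher (against 3.93% of the genes tested in this direction): Pgam2, the muscle phosphoglycerate mutase (2.79 ± 0.73, edgeR adjusted p = 0.0381, at 0.14 to 0.36 TPM with DMSO and 0.68 to 2.99 with AA+2i), and Pfkfb2 (0.69 ± 0.19, 0.0475), a relative of Pfkfb3. With the GC correction, 1 of the 24 was called with AA, higher, 4 with 2i, all lower (the glucose transporters Slc2a3 and Slc2a4, Pdk2 and Pdp1), and 5 with AA+2i, 3 higher (Pgam2, Pfkfb2 and Pgm1) and 2 lower (Slc2a4 and Pdk2). The correction also raised the calls over all genes, as given above. Of 37 tested hypoxia genes, 0 were called under AA, 3 under 2i and 8 under AA+2i, all lower (8.11% and 21.6% of the list, against 2.83% and 4.41% of the genes tested). With 2i these were Tmem45a (-1.83 ± 0.34), Nos2, the inducible nitric oxide synthase (-2.53 ± 0.61), and Igfbp3, which binds insulin-like growth factors (-2.15 ± 0.22). Igfbp3 stood at 62.3 to 100.3 TPM with DMSO, 44.7 to 57.8 with AA, 15.1 to 17.4 under 2i and 20.7 to 24.4 under AA+2i, so that no group overlapped another. With AA+2i the 8 were Tmem45a, Igfbp3, Stc1 and Stc2, which encode stanniocalcins, Edn1, which encodes endothelin, the collagen-modifying P4ha1 and Loxl2, and Errfi1, an inhibitor of EGF receptor signalling. The medians over the tested hypoxia genes were -0.24 for AA, -0.38 for 2i and -0.38 for AA+2i, and -0.09, -0.34 and -0.25 with the GC correction. With the GC correction, 2 of the 37 hypoxia genes were called with AA and 6 with 2i, all lower, and with AA+2i 14 lower and 1 higher. These are 5.41, 16.2 and 40.5% of the list, against 4.07, 11.9 and 19.6% of the genes tested. The list was made with earlier results of these data known, and the study names Igfbp3 from them, so its shares are not a test against the background. It holds genes that are known to answer to other signals too, and what the changes owe to HIF was not tested.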

How the data were processed

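The authors trimmed the reads with Fastx, aligned them with Bowtie2 to the RefSeq genes of mm9 and quantified them with RSEM 1.2.4, per the methods and the labels. The deposited expected counts are estimates that need not be whole and are not normalised. The TPM and FPKM that the authors deposited are scaled for length and library, and FPKM served only to restore 1 malformed TPM cell, which belonged to none of the 37 genes. The reads were not analysed here. After rounding, edgeR 4.0.16 in R 4.3.3 tested the counts (quasi-likelihood, RLE factors, 1 mean per condition, Benjamini-Hochberg adjustment, 8 residual degrees of freedom) for the 13400 genes that reached 10 counts in 3 or more libraries. The SE was derived from the fold change and the F statistic. The alternatives were TMM factors, DESeq2 1.42.0, limma 3.58.1 on log2(TPM + 1), no filter, a replicate block, a GC correction (loess, span 0.4), both together, and leaving out each replicate letter or library. The EBSeq test of the study's methods was not run. Genes were described in full if called in any comparison, filled up to 12 by the smallest p-value against DMSO, together with the HIF axis. Further genes are given by their ranges, and those of them printed library by library (Bnip3, Gapdh, Eno1, Aldoa, Hk1, Pdk1 and Vegfa) were chosen after their values were seen. The genes and lists were chosen with earlier results of these data known. Promoter sequences are from RefSeq and were placed on mm9 by exact match. Gene positions are from GENCODE M1 on mm9. The fits were also run on simulated counts. These held no replicate effect and no uneven GC coverage, so how the fits deal with either was not tested. The p-values measure the spread between these replicates.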

Additional observations from a re-analysis of the deposited data

How the results depend on the processing

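Against DMSO, the counts of the 37 genes called (AA 0, 2i 3 and AA+2i 2) came to 0, 6 and 6 with DESeq2 (against 3.39, 8.2 and 14% of all genes tested), and to 1, 9 and 8 with the GC correction (4.07, 11.9 and 19.6%). For AA+2i against 2i and against AA (0 and 4) the GC correction called 1 and 7 (4.61 and 14.9%). TMM factors, limma on TPM and no count filter left all 6 counts within 1.5 times of these. The interaction was called for 0 genes under every alternative run. Leaving out 1 replicate letter or library gave 0 to 5 genes with 2i, 0 to 3 with AA+2i against DMSO and 0 to 4 with AA+2i against AA, and 0 in the other comparisons; without replicate B no gene was called in any comparison, when 0 to 18 of all genes were. Epas1 with 2i was called under 21 of 22 alternatives (-2.26 to -1.82), lost only without replicate B (edgeR adjusted p = 0.23). The calls of Egln3 and Ndrg1 with 2i held under 9 and 10 of 22, and those of Epas1 and Mxi1 with AA+2i under 14 and 15.

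The main fit did not take the letters as pairs. Of 18 pairs of libraries with the same letter, 15 had deviations from the group means that correlated above 0.1. The mean correlation was 0.401 (from -0.588 to 0.894), and 9 of 12 libraries correlated best with their own letter. Libraries of a letter thus tended to vary together, and the main fit left this in its spread. The mean of -0.196 over 36 pairs of different letters adds little, as deviations within a group sum to 0. The replicate block called 1, 11 and 17 genes against DMSO for AA, 2i and AA+2i in turn (4.43, 13.3 and 31.6% of all genes), 1 for AA+2i against 2i (4.52%) and 7 for AA+2i against AA (14.9%). Of the enzymes, the block called Eno2 lower with AA, Gapdh and Pfkp higher with 2i, and Hk1, Gpi1, Pfkp, Aldoa, Aldoc and Gapdh higher and Eno2 lower with AA+2i, all against DMSO. The block with the GC correction called 2, 11, 14, 3 and 10 (10.8, 24.6, 36.1, 11.3 and 27.4%). With the GC correction, the change with AA+2i against DMSO took the other sign for 8 of the 37 genes, 0 of them called in either fit: Hk1 (-0.04), Tpi1 (-0.06), Pgam1 (-0.10), Slc2a1 (-0.22), Bnip3 (0.16), Ddit4 (-0.20, and -0.03 with the block as well), Hif1a (0.02 and 0.03) and Egln1 (-0.27 and -0.15). With AA and with 2i it did so for 9 and 5 genes, 0 of them called. The cause was not tested. The limma fit on TPM gave a median over all genes of -0.13 with 2i and -0.15 with AA+2i, in place of -0.02 in both, and over the 37 genes of -0.19 and 0.00, in place of -0.04 and 0.16. With 3 libraries a condition, the absence of a call does not show the absence of a change. Car9, Car12 and Adm are limited by their low counts.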
